A study of Rattus norvegicus with 16 samples.

Results

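The cartilage matrix and chondrocyte genes are 10 genes listed by name for their known roles, with no threshold on a measured value: Sox9, Ihh, Col2a1, Col10a1, Acan, Hapln1, Matn1, Matn3, Comp and Cytl1. Of the 10, 9 were measured, each by 1 array row that names it alone, among 17245 genes in all. No row used here names Comp alone, and it has no value below. Chondrocytes are the cells of cartilage. They make a matrix of type II collagen fibrils and of aggrecan, a proteoglycan whose chondroitin sulphate chains hold water, and link protein ties aggrecan to hyaluronan. In a growth plate or a fracture callus, SOX9 switches the matrix genes on, and maturing cells then make Indian hedgehog and type X collagen before bone replaces the cartilage, whereas bone can also form directly from mesenchymal cells without a cartilage stage.

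The study set out to describe gene expression in cells adhering to titanium implants with different surfaces. Each male Sprague Dawley rat carried AT-I implants, which have nanoscale surface features, in one tibia and AT-II implants, which are microrough without such features, in the other, the sides being assigned at random. The implants were commercially pure titanium, 2 per tibia, and were taken out 2 or 4 days after surgery from 4 rats per day, 8 rats in all. RNA of the adherent cells went onto 16 Affymetrix Rat Gene 1.1 ST arrays, in 4 groups of 4, 1 group for each surface and day. All groups share the drilled bone wound and the metal, there was no tibia without an implant, and the ages of the rats are not given in the labels. The cells were unsorted and are labelled only as tibial. In such bulk RNA, fewer cells of a type and less RNA per cell cannot be told apart.

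Replicates 2 and 3 of AT-II at day 2 gave arrays more alike than any other of the 120 pairs (the SD of their difference was 0.11 on the log2 scale over the most variable of 4036 bright rows, against at least 0.29), so they were averaged and counted as 1 sample. AT-II day 2 therefore had n = 3 and the fit had 15 samples. Arrays also differed in background. As a mark of it, the 95th percentile of 60 olfactory receptor genes, which bone and marrow cells are not known for, ran from 6.60 to 7.49 on the AT-I day 2 arrays, 5.86 to 6.65 on AT-II day 2, 5.81 to 7.37 on AT-I day 4 and 5.85 to 6.65 on AT-II day 4. Among markers of other cells, 9 of 9 measured osteoblast genes rose from day 2 to day 4 on AT-I and 8 of 9 on AT-II (limma, Benjamini-Hochberg adjusted p under 0.05), and their mean level on each array was 7.14 to 8.28, 7.31 to 8.67, 10.16 to 10.80 and 10.16 to 10.88 in the 4 groups in the same order. Over all 17245 genes 8.84% rose and 2.66% fell on AT-I, and 3.13% rose and 0.203% fell on AT-II. In the 5 tendon genes 2 rose on each surface, and 0 rose in the lists of muscle, adipocyte, endothelial, macrophage, neutrophil and erythroid markers. At the shares over all genes, lists this short can hold 0, so the 0 is no result about those cells. In these 6 lists 1 marker fell, the neutrophil receptor gene Csf3r on AT-I, by 0.92 on the log2 scale (limma adjusted p = 0.00907), with -0.68 on AT-II (limma adjusted p = 0.143). Under other ways of handling the data, the osteoblast genes that rose numbered 8 to 9 on AT-I and 5 to 9 on AT-II.

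Most of the cartilage genes lay low on these arrays. Matn1, Matn3, Ihh, Col10a1 and Cytl1 were above the olfactory mark of their own array on 0 of 16 arrays, and Hapln1 on 1, AT-I day 4 replicate 4. Col2a1 was above it on 8 arrays, 2 of 8 at day 2 and 6 of 8 at day 4. The mark differed between arrays, so these counts do not follow the level of the gene alone. Col2a1 was above the mark at 6.15 and 6.16 in AT-II day 2 replicates 2 and 3, the averaged pair, where the marks were 5.86 and 5.92. At its highest level, 6.99 in AT-I day 4 replicate 3, it was below the mark of 7.37. Acan was above the mark of its own array on 10 arrays: 0 of 4 in AT-I day 2, 2 of 4 in AT-II day 2 and all 8 at day 4. Sox9 was above it on 11 arrays: 1 of 4 in AT-I day 2, 3 of 4 in AT-II day 2 and 7 of 8 at day 4. The AT-II day 2 arrays above it for Sox9 were replicates 2, 3 and 4, and replicates 2 and 3 counted as 1 sample in the fit. Probes differ in brightness, so this mark is a guide to how near a gene lay to background and not a test of its presence.

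**Figure D1:**
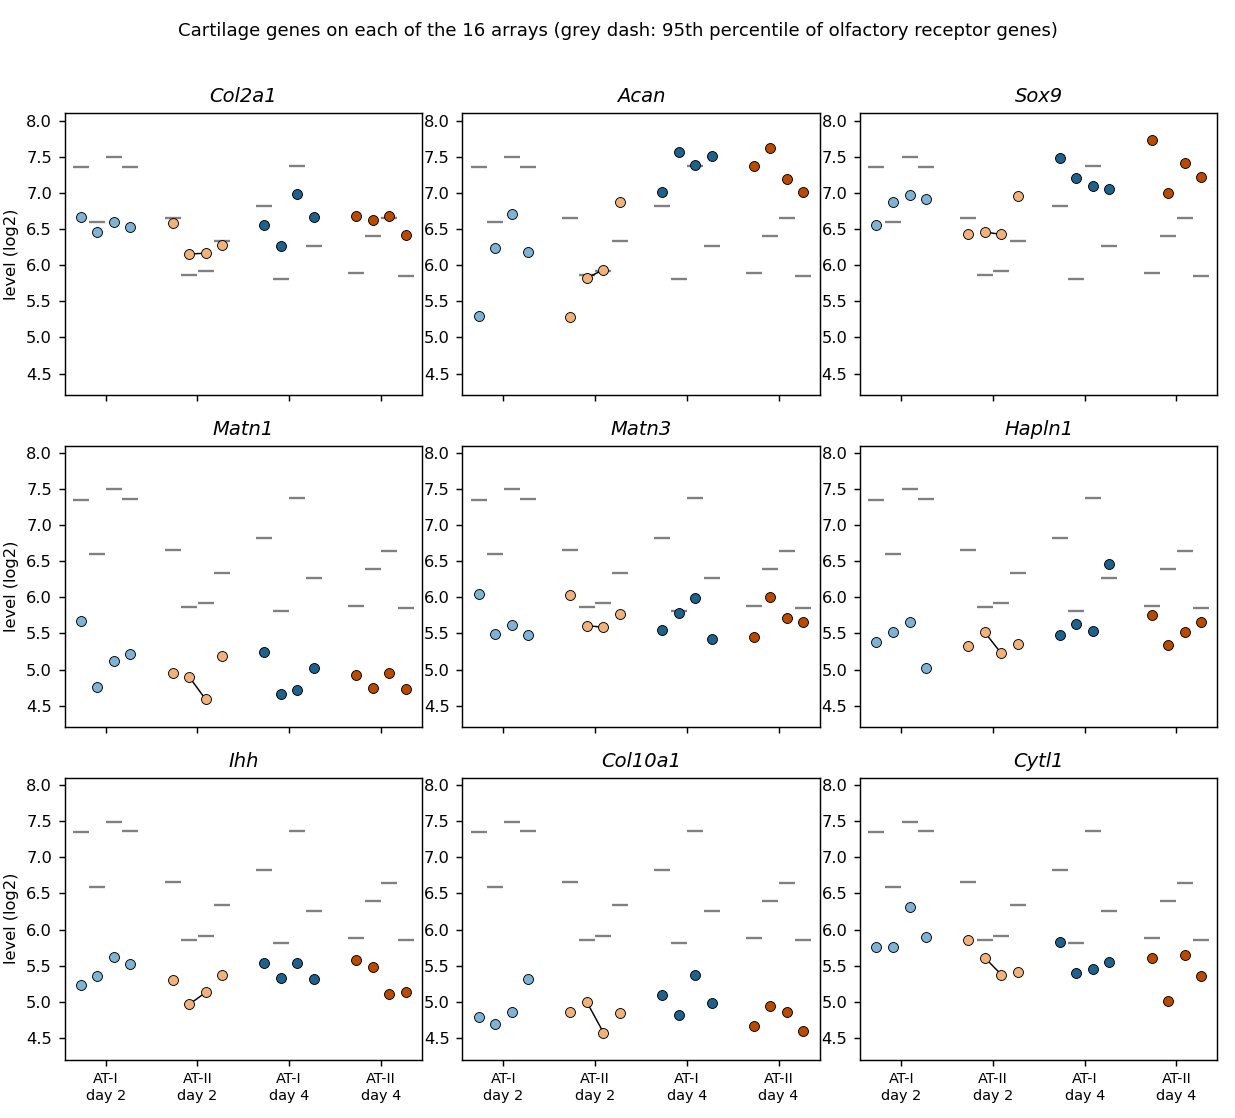
Log2 level of each of the 9 measured cartilage genes on each of the 16 arrays, by group, with 1 panel per gene. Each point is an array, the black line joins the 2 AT-II day 2 arrays that were averaged, and grey dashes give the 95th percentile of 60 olfactory receptor genes on the same array. Acan and Sox9 are higher at day 4 than at day 2 on both surfaces without overlap, and 5 genes stay below the grey dashes on every array.

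The comparison of day 4 with day 2 asked how the adherent cells changed as healing went on. Acan was higher at day 4 on both surfaces, by 1.27 on AT-I and 1.29 on AT-II in measured log2 signal, and passed the test on both. Its AT-I day 2 arrays were all below the olfactory mark, and so were AT-II day 2 replicates 1 and 2. The sizes on both surfaces are thus ones of array signal, and no fold of the transcript is given. Sox9 was higher at day 4 on both, and passed on AT-II, at 0.73. The other 7 measured cartilage genes, among them the genes of the type II and type X collagens, passed on neither surface. On AT-I, 1 of 9 cartilage genes thus rose and 0 fell, where 11.5% of all 17245 genes passed in either direction, 8.84% rising and 2.66% falling. On AT-II, 2 of 9 rose and 0 fell, where 3.33% of all genes passed in either direction, 3.13% rising and 0.203% falling. The median difference over the 9 genes was 0.06 on AT-I and 0.09 on AT-II, beside -0.05 over all genes on each surface.

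Acan encodes aggrecan, the main proteoglycan of cartilage. Its log2 level was 5.30, 6.23, 6.70 and 6.19 in AT-I day 2 replicates 1 to 4 and 7.02, 7.57, 7.39 and 7.51 in AT-I day 4 replicates 1 to 4. On AT-II it was 5.28, 5.82, 5.94 and 6.88 at day 2 and 7.38, 7.62, 7.19 and 7.01 at day 4. Every day 4 array lay above every day 2 array of the same surface, and replicate 1 was the lowest of the day 2 arrays on both surfaces. The group means were 6.11 ± 0.585 (SD, n = 4) and 7.37 ± 0.247 (SD, n = 4) on AT-I, a difference of 1.27 ± 0.31 (SE) with a 95% interval of 0.61 to 1.92 (limma, Benjamini-Hochberg adjusted p = 0.0146). On AT-II they were 6.01 ± 0.808 (SD, n = 3) and 7.30 ± 0.260 (SD, n = 4), a difference of 1.29 ± 0.33 (SE) with an interval of 0.58 to 2.00 (limma adjusted p = 0.0450). The spread among day 2 arrays was thus larger than that among day 4 arrays on both surfaces, a description without a test.

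The rise of Acan on AT-I passed in 25 of 26 other ways of handling the data (a filter on dim genes, tried as well, removed Acan), the exception being a fit with the spread of each array's values as a covariate (1.17, limma adjusted p = 0.0653), and without AT-I day 2 replicate 1 it was 1.00 (limma adjusted p = 0.0471). On AT-II it passed in 10 of 26. Leaving out any 1 of 12 of the 15 samples ended that call, namely each of the 8 day 4 samples, AT-I day 2 replicates 2 and 4, AT-II day 2 replicate 1 and the averaged sample. The difference then ran from 0.92 without AT-II day 2 replicate 1 (limma adjusted p = 0.317) to 1.39 without AT-II day 4 replicate 4 (limma adjusted p = 0.0577). The osteoblast markers moved with Acan on both surfaces, at the levels given above, and their part in the rise was not tested.

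Sox9 encodes the transcription factor that specifies chondrocytes and is also made by other progenitors. Its log2 level on AT-I was 6.55, 6.87, 6.96 and 6.91 at day 2 and 7.48, 7.20, 7.09 and 7.05 at day 4. On AT-II it was 6.42, 6.46, 6.42 and 6.95 at day 2 and 7.73, 6.99, 7.42 and 7.22 at day 4. The days did not overlap on either surface, by narrow margins of 6.96 against 7.05 on AT-I and 6.95 against 6.99 on AT-II. Cartilage genes without overlap, higher at day 4, were thus 2 of 9 on each surface, Acan and Sox9, where 11.3% of all genes on AT-I and 8.74% on AT-II lay so. Lower at day 4 without overlap were 0 of 9 on each surface, beside 4.01% of all genes on AT-I and 7.63% on AT-II. The group means of Sox9 were 6.61 ± 0.302 (SD, n = 3) and 7.34 ± 0.313 (SD, n = 4) on AT-II, a difference of 0.73 ± 0.19 (SE) with an interval of 0.34 to 1.13 (limma adjusted p = 0.0391). On AT-I they were 6.82 ± 0.188 (SD, n = 4) and 7.21 ± 0.193 (SD, n = 4), a difference of 0.38 ± 0.17 (SE) with an interval of 0.02 to 0.75, which did not pass (limma adjusted p = 0.161).

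The day effects of Sox9 on AT-I and AT-II were not shown to differ: the difference between them was -0.35 with an interval of -0.89 to 0.18 (limma adjusted p = 0.924). For Acan that difference was -0.02 with an interval of -0.99 to 0.94 (limma adjusted p = 0.994). The Sox9 call on AT-II held in 15 of 27 other settings, and ended when any 1 of 8 samples was left out (AT-I day 2 replicates 2 and 4, AT-II day 2 replicate 1, the averaged sample, AT-I day 4 replicate 2 and AT-II day 4 replicates 1, 3 and 4), the lowest value being 0.60 without AT-II day 4 replicate 1 (limma adjusted p = 0.139). Centring each array on its median gave 0.63 (limma adjusted p = 0.0758), and a repeated quantile normalization gave 0.60 (limma adjusted p = 0.108). In AT-I the Sox9 difference passed in 0 of 27 other settings.

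**Figure D2:**
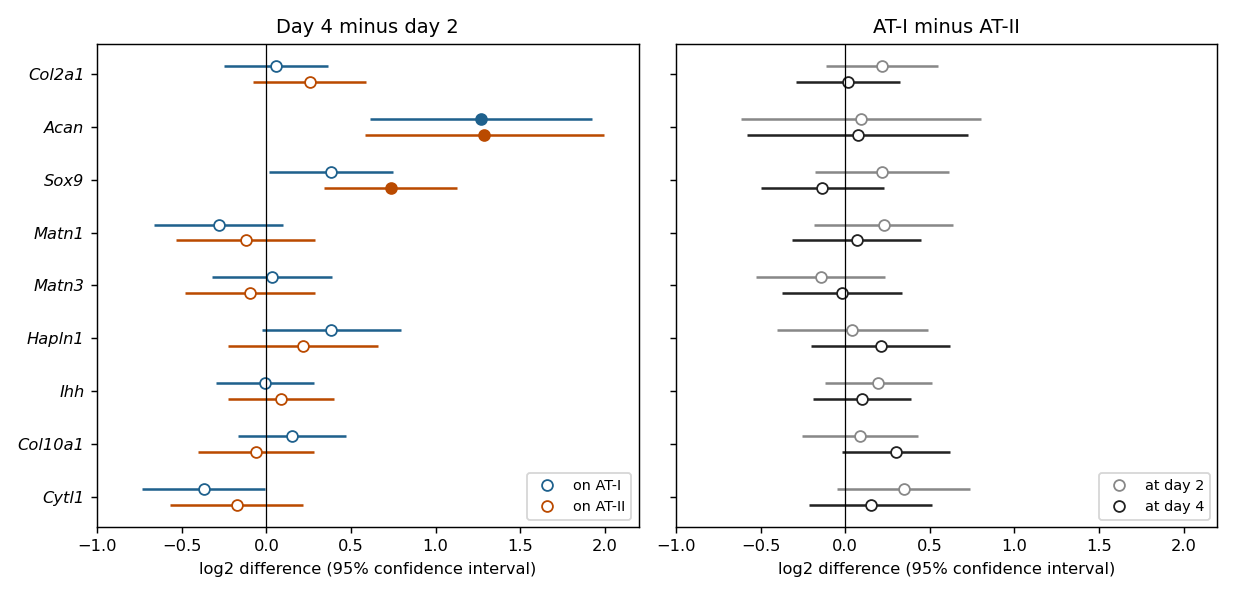
Log2 difference of each measured cartilage gene, with its 95% interval from limma, for AT-I against AT-II at each day and for day 4 against day 2 on each surface. Filled points passed at a Benjamini-Hochberg adjusted p under 0.05: Acan on both surfaces and Sox9 on AT-II, all for the days.

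Indian hedgehog, encoded by Ihh, is the signal that prehypertrophic chondrocytes send to their neighbours. Its log2 level ran from 5.23 to 5.63 in AT-I day 2, 4.97 to 5.37 in AT-II day 2, 5.31 to 5.53 in AT-I day 4 and 5.11 to 5.58 in AT-II day 4, so all groups overlapped. The day 4 minus day 2 difference was -0.01 on AT-I, with an interval of -0.30 to 0.28, and 0.09 on AT-II, with an interval of -0.23 to 0.40 (limma adjusted p = 0.971 and 0.880). Ihh thus lay near array background throughout.

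Col2a1 encodes the collagen of hyaline cartilage. Its level was 6.66, 6.46, 6.59 and 6.53 in AT-I day 2, 6.59, 6.15, 6.16 and 6.28 in AT-II day 2, 6.56, 6.26, 6.99 and 6.67 in AT-I day 4 and 6.69, 6.62, 6.68 and 6.41 in AT-II day 4. The highest array was AT-I day 4 replicate 3, where the olfactory receptor genes also had their highest median of the AT-I day 4 group, 5.84. The difference between days was 0.06 on AT-I, with an interval of -0.25 to 0.37, and 0.26 on AT-II, with an interval of -0.08 to 0.59 (limma adjusted p = 0.819 and 0.552). A rise of Col2a1 signal as large as that fitted for Acan lay outside both intervals. Col2a1 was above the olfactory mark on only 2 of 8 day 2 arrays, the averaged AT-II pair. The intervals thus bound array signal and not the transcript. Col10a1, which marks hypertrophic chondrocytes, ran from 4.57 to 5.37 over all 16 arrays and had day differences of 0.15 on AT-I, with an interval of -0.17 to 0.47, and -0.06 on AT-II, with an interval of -0.41 to 0.28 (limma adjusted p = 0.526 and 0.937).

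Hapln1 encodes the link protein that locks aggrecan onto hyaluronan. On AT-I its level was 5.38, 5.51, 5.66 and 5.02 at day 2 and 5.48, 5.63, 5.53 and 6.46 at day 4, and on AT-II it was 5.33, 5.52, 5.23 and 5.35 at day 2 and 5.75, 5.34, 5.53 and 5.65 at day 4. AT-I day 4 replicate 4 stood alone above all other arrays. The day difference was 0.38 ± 0.19 (SE) on AT-I, with an interval of -0.03 to 0.80, and 0.22 ± 0.21 (SE) on AT-II, with an interval of -0.23 to 0.66, and passed on neither (limma adjusted p = 0.208 and 0.750).

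The matrilins are adaptor proteins that join collagen fibrils to aggrecan. Matn1 ran from 4.59 to 5.67 and Matn3 from 5.43 to 6.04 over the 16 arrays, and the groups overlapped for both. Matn1 differed between days by -0.28 on AT-I and -0.12 on AT-II, and Matn3 by 0.03 and -0.10, with none passing. Cytl1, a small secreted protein of chondrocytes, was 5.75, 5.76, 6.32 and 5.90 in AT-I day 2, 5.85, 5.61, 5.38 and 5.41 in AT-II day 2, 5.84, 5.40, 5.46 and 5.55 in AT-I day 4 and 5.61, 5.02, 5.65 and 5.36 in AT-II day 4. It differed between days by -0.37 ± 0.17 (SE) on AT-I, with an interval of -0.74 to -0.01 and an unadjusted p under 0.05, and did not pass after adjustment (limma adjusted p = 0.170). Over the 7 measured cartilage genes other than Acan and Sox9, the day differences ran from -0.37 to 0.38 on AT-I and from -0.18 to 0.26 on AT-II.

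Setting AT-I beside AT-II asked whether nanoscale features changed these genes. No cartilage gene passed at day 2 or at day 4, and 0 had an unadjusted p under 0.05 at either day. Over all genes limma called 0% at day 2 and 0% at day 4, with 4701 and 687 genes at an unadjusted p under 0.05. The 0 at day 2 depends on the handling of the samples: it became 2193 genes with all 16 arrays counted separately, 3823 with those 16 arrays and replicate number as a fixed block, 93 with a random block on the 15 samples, 3713 with array weights and 711 without AT-I day 2 replicate 2. The cartilage genes passed between surfaces in none of these settings. Each rat carried both surfaces, and the labels do not say which samples share a rat. At day 2 the differences of the 9 genes were 0.04 to 0.35 in size (limma adjusted p 0.224 to 0.894), and at day 4 they were 0.02 to 0.30 in size (limma adjusted p 0.913 to 0.994). For Acan, AT-I minus AT-II was 0.10 at day 2, with an interval of -0.61 to 0.80, and 0.07 at day 4, with an interval of -0.58 to 0.73. For Sox9 it was 0.22 at day 2, with an interval of -0.18 to 0.61, and -0.14 at day 4, with an interval of -0.50 to 0.23.

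Of the 9 genes, 8 had a higher mean on AT-I at day 2, where 7286 of all 17245 genes did. The median difference was 0.20 beside -0.09 over all genes. The day 2 AT-I arrays also had the higher olfactory receptor signal, with array medians of 4.95 to 6.11 against 4.50 to 5.12 on AT-II, and its part in the small differences of these low genes was not tested. At day 4, 7 of the 9 means were higher on AT-I, where 7216 of all 17245 genes were. The median difference was 0.07 beside -0.03 over all genes. The groups overlapped for all 9 genes at both days, while 8.83% of all genes at day 2 and 0.789% at day 4 were higher on AT-I without overlap, and 11.3% and 1.41% were lower.

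The promoter of Acan was set beside those of other cartilage genes. Of the 10 genes, 6 have a promoter in the RefSeq table used here (build GRCr8): Acan, Hapln1, Matn3, Cytl1, Comp and Col10a1. The 250 bases before each start were searched on both strands. The motifs were ACAAAG and ACAATG, short forms of the SOX motif, and TGTGGT, the RUNX motif. They were chosen because Sox9 is a member and Runx2 is a factor of hypertrophic chondrocytes and osteoblasts. Over all 33469 promoters of this length, 16.3% held ACAAAG, 11.1% ACAATG and 14.5% TGTGGT. The promoter of Acan is shown because it is the gene that rose on both surfaces, and those of Hapln1 and Col10a1 because they are the ones with a match, which stands in capitals. All 3 are on the plus strand.
Acan (chr1:142390701-142390950): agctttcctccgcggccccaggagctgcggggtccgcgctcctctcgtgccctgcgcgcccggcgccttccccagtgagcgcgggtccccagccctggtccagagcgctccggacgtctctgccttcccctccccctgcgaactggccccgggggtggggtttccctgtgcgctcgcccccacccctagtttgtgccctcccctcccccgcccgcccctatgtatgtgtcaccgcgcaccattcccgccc
Hapln1 (chr2:22366717-22366966): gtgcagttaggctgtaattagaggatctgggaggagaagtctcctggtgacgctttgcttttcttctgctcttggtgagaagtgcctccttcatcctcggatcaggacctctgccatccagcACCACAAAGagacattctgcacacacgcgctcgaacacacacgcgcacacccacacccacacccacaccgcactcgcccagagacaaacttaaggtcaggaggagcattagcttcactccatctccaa
Col10a1 (chr20:39737286-39737535): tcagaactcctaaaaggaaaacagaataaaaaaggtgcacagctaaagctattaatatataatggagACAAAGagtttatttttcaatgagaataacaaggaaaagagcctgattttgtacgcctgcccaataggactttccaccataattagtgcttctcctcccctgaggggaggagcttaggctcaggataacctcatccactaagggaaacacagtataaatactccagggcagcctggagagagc
Acan, which rose, holds none of the 3 motifs in this window, and 73.6% of its bases are G or C, against a median of 51.2% over all promoters. Hapln1, which did not pass, holds ACAAAG on the plus strand, 125 to 120 bases before the start, and TGTGGT on the minus strand, 128 to 123 bases before it, so that the matches overlap in the capitals above. Col10a1 holds ACAAAG 183 to 178 bases before the start. Matn3, Cytl1 and Comp hold none. The windows cover only the bases next to the start, and a match or its lack is a description of letters.

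Genes with profiles close to those of Acan and Sox9 were sought over the 15 samples, after centring each gene on its mean. The nearest to Acan were Col5a1, a chain of type V collagen, with a root mean square difference of 0.247, Srpx with 0.251 and Mmp14, a membrane collagenase, with 0.252, beside a spread of 0.765 for Acan itself. Their day 4 minus day 2 differences were 1.48 on AT-I and 1.47 on AT-II for Col5a1, 1.57 and 1.22 for Srpx, and 1.33 and 1.28 for Mmp14, a direction that the choice by likeness to Acan over the same samples fixes. The nearest to Sox9 were Zfp423, Vstm4 and Tcfl5, at 0.145, 0.154 and 0.163 beside a spread of 0.357 for Sox9. Their differences, likewise bound by the choice, were 0.43 and 0.56 for Zfp423, 0.56 and 0.59 for Vstm4, and 0.33 and 0.66 for Tcfl5.

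Other genes of cartilage were taken as 6 lists with 92 entries, of which 86 were measured. The lists were written with earlier results of these data known, so their counts are a description and not a test. From day 2 to day 4, 30 of the 86 rose and 1 fell on AT-I, 22 rose and 0 fell on AT-II, and 21 rose on both. Over all 17245 genes 8.84% rose and 2.66% fell on AT-I, and 3.13% rose and 0.203% fell on AT-II, and the counts of each list below stand beside these shares. The counts on AT-II rest partly on single samples: 11 of 86 rose without AT-II day 2 replicate 1 and 13 without the averaged sample. For the lists in the order given below, the counts that rose on AT-II without AT-II day 2 replicate 1 were 2, 3, 1, 3, 2 and 0. Many members of these lists are also used by bone-forming cells, and the osteoblast markers rose beside them. The part of such cells in these counts was not tested. Some list members lay low at day 2. On AT-I at day 2, for example, Boc reached at most 6.06, Hapln3 5.81, Chsy3 5.79, Fmod 5.49 and C1qtnf3 5.28. The lowest olfactory mark of that group was 6.60. The sizes below are thus ones of array signal, as for Acan.

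Among 9 collagen genes found in cartilage, 5 rose on AT-I and 3 on AT-II, with medians of 1.04 and 0.59. Col11a1, a chain of the type XI collagen that seeds thin fibrils in cartilage and is also made in forming bone, had means of 7.17 ± 0.508 (SD, n = 4) and 9.86 ± 0.253 (SD, n = 4) on AT-I at days 2 and 4, a rise of 2.69 ± 0.33 (SE, limma adjusted p = 0.000104), and rose by 2.65 ± 0.35 on AT-II. Col11a2 rose by 1.41 ± 0.17 and 1.44 ± 0.18. The type VI chains Col6a2 (1.04 on AT-I and 0.92 on AT-II) and Col6a3 (1.35 on AT-I, and 1.02 on AT-II, limma adjusted p = 0.0822) encode collagen of the matrix around cells. Col6a2 on AT-II passed in 13 of 27 other settings. The type IX chains, which coat type II collagen fibrils and were singled out after the values were seen, passed on neither surface: Col9a1 had -0.33 and -0.17, Col9a2 -0.24 and -0.19, and Col9a3 -0.28 and 0.23.

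Among 22 other matrix proteins, 2 rose and 1 fell on AT-I and 3 rose on AT-II, with medians of -0.19 and -0.07. Fmod, which encodes fibromodulin, a regulator of collagen fibrils, rose by 2.68 ± 0.29 on AT-I and 2.86 ± 0.31 on AT-II, and C1qtnf3, a secreted protein of chondrocytes and other mesenchymal cells, by 1.78 ± 0.19 and 1.75 ± 0.20. Hapln3, a relative of link protein, rose by 0.68 on AT-II and had 0.41 on AT-I (limma adjusted p = 0.0626). Its AT-II call ended on leaving out the averaged sample or AT-II day 2 replicate 4, and with arrays centred on their medians. Prg4, which encodes lubricin, fell by 0.75 ± 0.21 on AT-I, a call held in 19 of 27 other settings and ended by leaving out AT-I day 2 replicate 1 or 3 or AT-I day 4 replicate 1, 2 or 4.

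Among 11 measured transcription factors of chondrocytes, 4 rose on AT-I and 2 on AT-II. Runx2, which drives both hypertrophic chondrocytes and osteoblasts and also stands in the osteoblast list, rose by 1.27 ± 0.17 and 1.34 ± 0.18. Mef2c, a factor of chondrocyte hypertrophy, rose by 1.03 and 0.75, and its AT-II call ended without AT-II day 2 replicate 1 (0.60, limma adjusted p = 0.0800). Foxc1 (0.68) and Trps1 (0.58) rose on AT-I, in 20 and 11 of 27 other settings. Sox5 and Sox6, which act with SOX9 on cartilage genes and were also singled out after their values were seen, did not pass, at -0.18 and 0.19 on AT-I and 0.00 and -0.19 on AT-II.

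Among 15 measured genes of hedgehog and PTHrP signalling, the loop through which Ihh acts in the growth plate, the same 7 rose on both surfaces (Boc, Disp1, Gli2, Gli3, Kif7, Pth1r and Smo), with medians of 0.30 and 0.44. Pth1r, the receptor of parathyroid hormone and PTHrP in chondrocytes and osteoblasts, rose by 2.66 ± 0.42 on AT-I and 2.35 ± 0.45 on AT-II. Gli3, a transcription factor of the pathway, rose by 1.45 and 1.06, and Boc, a hedgehog co-receptor, by 1.22 and 1.18. These 3 passed on both surfaces in every setting run, while Kif7 passed on neither, at 0.19 and 0.15, when its array rows were averaged, and the AT-II call of Smo (0.86) held in 12 of 27 other settings. Gli2 rose by 0.56 and 0.76, in 15 of 26 other settings on AT-I and 19 of 26 on AT-II. Its AT-I day 4 arrays reached at most 5.72, below the lowest olfactory mark of that group, 5.81. On AT-II Gli2 reached at most 5.12 in the day 2 samples as fitted, where the lowest olfactory mark was 5.86. At day 4 it ran from 5.34 to 5.95 on AT-II, beside olfactory marks of 5.85 to 6.65. The ligand Ihh itself did not pass, as given above, and Pthlh and Ptch1 were not analysed here.

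Aggrecan carries chondroitin sulphate, and among 18 genes that make sulphate donors and chondroitin chains 7 rose on AT-I and 6 on AT-II, the 6 being Chpf, Chst11, Chst13, Chsy1, Chsy3 and Papss2. Chsy3, a chondroitin synthase, rose by 1.56 and 1.44, and Papss2, which makes the sulphate donor, by 1.57 and 1.14. Chsy1 rose by 0.96 and 0.72 and Chpf by 0.87 and 0.84. Without AT-II day 2 replicate 1 the AT-II calls of Papss2 (0.83, limma adjusted p = 0.0824), Chsy1, Chpf and Chst13 ended.

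Among 11 proteases that cut aggrecan or other cartilage matrix, 5 rose on AT-I and 1 on AT-II. Mmp14 rose by 1.33 and 1.28, and its AT-II call ended without AT-II day 2 replicate 1 (1.02, limma adjusted p = 0.101). Htra1, a secreted serine protease, rose by 1.25 on AT-I and had 0.77 on AT-II (limma adjusted p = 0.102). Adamts9, a metalloprotease that can cut aggrecan, rose by 0.69 on AT-I and had 0.54 on AT-II (limma adjusted p = 0.134). A difference between the surfaces in these day effects was called for 0 of 17245 genes, with a smallest limma adjusted p of 0.924 and 707 genes at an unadjusted p under 0.05.

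**Figure D3:**
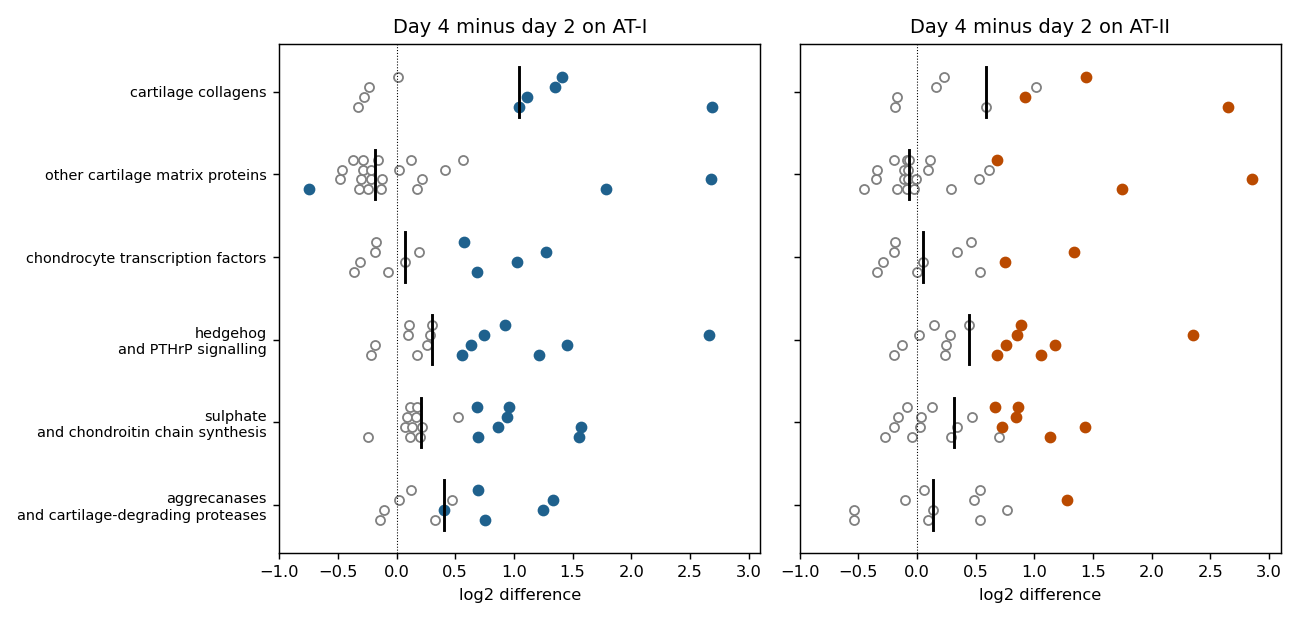
Log2 difference between day 4 and day 2 for each measured gene of 6 lists of cartilage-related genes, on AT-I and on AT-II. Filled points passed at a Benjamini-Hochberg adjusted p under 0.05 and the black bar is the list median, which was 1.04 on AT-I and 0.59 on AT-II for the collagens and near 0 for the transcription factors.

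**Figure D4:**
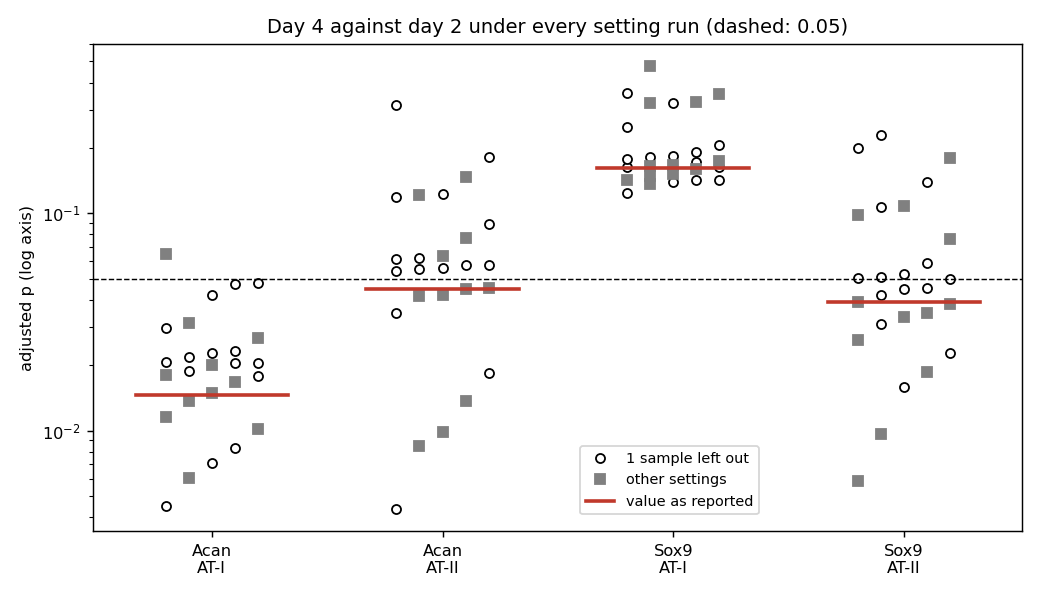
Benjamini-Hochberg adjusted p (log axis) of the day 4 against day 2 difference of Acan and Sox9 on each surface, under every setting run. Open circles leave out 1 sample, grey squares are other settings and the red line is the reported value. Acan on AT-I passes in 25 of 26 other settings, while both AT-II calls scatter about the threshold.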

How the data were processed

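Affymetrix Rat Gene 1.1 ST arrays measured RNA of implant-adherent cells. The submitters' processing notes name RMA and Affymetrix Expression Console, so the deposited values were read as log2 levels, the base of 2 being inferred. The sources used here give neither versions nor a build. Of 29214 rows, 18644 name 1 gene in the platform annotation (18460 matched the GRCr8 gene table by identifier), 962 name several and 9608 none. The brightest row was used per gene, which gave 17245 genes.

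Groups came from the sample titles. A model of group means was fitted in R 4.3.3 with limma 3.58.1 (lmFit, then eBayes, two-sided, no covariate, 11 residual degrees of freedom) to all genes over 15 samples, with Benjamini-Hochberg adjusted p under 0.05 called. It was also run on simulated data with independent noise, which do not model shared rats, near-duplicate arrays or differing array background. Same-numbered samples of the 2 surfaces on the same day, which could share a rat, did not deviate together in every pair (r -0.34 to 0.64). The labels do not tie numbers to rats, so no block was used. P-values between surfaces thus ignore that each rat carried both, and the number of arrays limits precision. The background mark excluded Olr1, which is not an olfactory receptor. The genes and lists were chosen with earlier results of these data known. Named genes were all 10 cartilage genes, up to 3 per list and surface with the smallest p, and the 3 profiles nearest to each called gene, with exceptions stated. Other settings numbered 27, of which 15 left out 1 sample.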

Additional observations from a re-analysis of the deposited data

Results flagged for a closer look

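Hapln1 on AT-I day 4 replicate 4 had a log2 level of 6.46, while the other 3 arrays of the group had 5.48 to 5.63. The gap to the nearest array was 0.846 of the group's range, above Dixon's critical value of 0.829 for 4 samples. It was the 1 value so marked among 27 groups of 4 tested for the 9 genes, and chance marks about 1 group in 20.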

How the results depend on the processing

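Of the 45 differences of the 9 genes over 5 comparisons, 3 passed. The other 42 passed in 0 of the settings run, 24 of them changed sign in at least 1 setting, and none of the 3 called differences reversed. The count of cartilage genes that rose on AT-I (1) was 0 with dim genes removed, which keeps Sox9 alone of the 9, and 0 with array spread as a covariate. On AT-II (2) it was 0 with arrays centred, 0 with quantile normalization repeated, 0 with only the compared groups fitted, 0 without both day 2 samples numbered 1, 1 with dim genes removed, and 0 to 2 when 1 sample was left out. Over all genes, the surfaces at day 2 (0) gave 2193 with 16 arrays counted separately, 1 with quantile normalization repeated, 3713 with array weights, and 0 to 711 when 1 sample was left out (711 without AT-I day 2 replicate 2). Day 4 against day 2 on AT-I (1983) gave 1060 with only the compared groups, 1314 with array spread as a covariate and 1158 to 2954 with 1 sample left out (AT-I day 4 replicates 4 and 3). On AT-II (575) it gave 1228 with array weights, 334 without both day 2 samples numbered 1 and 223 to 694 with 1 sample left out (AT-II day 2 replicate 1 and AT-I day 2 replicate 1). Centring moved the median of all genes from -0.05 to -0.21 on AT-I and to -0.16 on AT-II, and the share of called genes that rose from 76.9% to 39.7% and from 93.9% to 72.2%. Quantile normalization gave 65.5% on AT-I. The causes were not tested.

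Replicate number as a block pairs samples only by number. The random block, and the fixed block between surfaces, took each number within a day. The fixed block between days took each number over both days, and so joined arrays of different rats. With a random block on the 15 samples, limma adjusted p was 0.0115 for Acan on AT-I, 0.0451 for Acan on AT-II and 0.0349 for Sox9 on AT-II, and 93 genes passed between surfaces at day 2. The fixed block also counted 16 arrays separately, so 2 choices changed at once, and its values stand beside those of 16 arrays with no block: 0.00607 beside 0.0102, 0.00845 beside 0.0137 and 0.0185 beside 0.00965 for these 3 differences, 3823 beside 2193 genes between surfaces at day 2, and 919 beside 849 genes between days on AT-II. Most of the 9 genes lie near array background, which limits what a missing difference can show.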
